A study of Mus musculus with 37 samples.

Results

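Hox paralogue groups 3 and 4 hold 7 genes in the mouse, Hoxa3, Hoxb3 and Hoxd3 in group 3 and Hoxa4, Hoxb4, Hoxc4 and Hoxd4 in group 4. They were taken by name, with no measured value used, and all 7 were found among the 39 Hox genes of the log2 RPKM table and the 35542 genes of the count table. RNA had been sequenced from the tailbuds of 37 F1 embryos between C57BL/6 and Castaneus at embryonic day 8 to 8.5, 1 library for each embryo, with 6 to 11 somites. The 21 wt embryos were Smchd1 fl/+, from Smchd1 fl/fl mothers without Cre, so they carried a floxed maternal allele that was intact. The 16 mat del embryos were Smchd1 del/+. Their mothers were Smchd1 del/fl with 1 copy of the MMTV-Cre transgene, which deletes the floxed allele in the oocyte, and the fathers of both genotypes were wild-type Castaneus males. Mat del embryos therefore lacked both the protein that the oocyte supplies and a working maternal copy of the gene, and these cannot be told apart here. The groups held 4 wt and 4 mat del embryos at 6 somites, 4 and 3 at 7, 3 and 2 at 8, 3 and 2 at 9, 4 and 3 at 10, and 3 and 2 at 11. All embryos with 6 somites were female. In all, 13 wt and 11 mat del embryos were female. At 8 and 9 somites all mat del embryos were female, while wt had 2 males at 8 and 1 at 9.

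Hox genes encode homeodomain transcription factors that give each level of the body axis its identity. They lie in 4 clusters, and genes at the same position in different clusters form a paralogue group. Within a cluster the genes are switched on one after another, from the anterior to the posterior end, as the axis extends. Groups 3 and 4 act in the hindbrain, the neck and the upper spinal cord, and mutants of these genes show altered cervical vertebrae. The C cluster of the mouse has no group 3 gene. SMCHD1 binds chromatin and takes part in silencing genes, and the question of the study was whether its loss from the oocyte changes when Hox genes come on in the tailbud, which holds presomitic mesoderm and the progenitors of the vertebral column and spinal cord.

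The genes are given here on GRCm38, as the count table places them. Hoxa3 lies at chr6:52169062-52213336 on the minus strand, and Hoxa4, at chr6:52189671-52191753, lies within its span without sharing exon bases. Hoxb4 at chr11:96318267-96321638 and Hoxb3 at chr11:96323326-96347930 follow each other on the plus strand. Hoxc4 is at chr15:103018934-103036852, plus strand. Hoxd3 at chr2:74711927-74748442 and Hoxd4 at chr2:74711929-74729160 start almost together on the plus strand and share 388 exon bases, 9.26% of the exon length of Hoxd3 and 13.2% of that of Hoxd4.

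The homeobox encodes the part of the protein that binds DNA, and it is where paralogues are most alike, so reads must be told apart there. Over the 180 bases of the homeobox, pairs from the same group were 77.2 to 93.9% identical (median 82.8%, 9 pairs), and pairs from different groups 68.3 to 76.7% (median 71.7%, 12 pairs). Outside the overlap of Hoxd3 and Hoxd4, the longest run of bases that any of the other 20 pairs had in common in their transcripts was 47, shorter than the 75-base reads.

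RefSeq's promoter table (GRCm38.p6) had 5 of the 7 genes, and Hoxa4 and Hoxb3 were not matched. Promoters of the neighbours Hoxd3 and Hoxd4 are shown because these genes had the largest fitted slopes with stage in wt. Bases upstream of the RefSeq start are given 5′ to 3′, the Hoxd3 window ending where the annotated first exon begins, at chr2:74711743-74711926 and chr2:74721728-74721977. Capitals mark matches, on either strand, to letters searched for: TTTATG, bound by CDX factors, AGGTCA, the half-site of retinoic acid receptors, TATAAA and CCAAT.
Hoxd3: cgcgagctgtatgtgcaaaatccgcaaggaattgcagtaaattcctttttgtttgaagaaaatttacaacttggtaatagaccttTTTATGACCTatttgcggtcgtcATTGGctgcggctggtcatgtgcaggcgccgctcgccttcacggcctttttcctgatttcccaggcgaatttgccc
Hoxd4: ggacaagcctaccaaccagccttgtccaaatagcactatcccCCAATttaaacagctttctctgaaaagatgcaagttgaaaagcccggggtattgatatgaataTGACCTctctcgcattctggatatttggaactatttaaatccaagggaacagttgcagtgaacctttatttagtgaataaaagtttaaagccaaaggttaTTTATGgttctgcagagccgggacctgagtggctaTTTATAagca
In the Hoxd3 window the first 2 motifs overlap by 2 bases. Over the 250 bases before the start, TTTATG was present in Hoxd3 and Hoxd4 and in 10.8% of 32851 promoters, and AGGTCA in Hoxb4, Hoxc4, Hoxd3 and Hoxd4 and in 14% of all. TATAAA was found in Hoxd4 alone of the 5 (12.4% of all), CCAAT in Hoxd3 and Hoxd4 (33.8%), and TGATTNAT, a site for PBX with HOX, in none of the 5 (2.82%). A match describes letters and is no evidence of binding.

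Library depth was 3061180 to 80579115 counts in wt and 916444 to 30156555 in mat del embryos, and the 2 shallowest libraries were mat del replicate 3 at 6 somites (916444) and wt replicate 2 at 7 somites (3061180). Smchd1 was at 104 to 197 CPM (counts scaled to a common library size) in wt and at 65.4 to 108 CPM in mat del embryos, and was lower in mat del (log2 fold change -0.74, SE 0.074, edgeR adjusted p = 1.27e-07). Mat del replicates 1 and 2 at 6 somites stood apart with 2.77% and 1.82% of counts at a ribosomal RNA locus, against 0.176 to 1.28% in the other 35 libraries. The summed level of 7 markers of formed somites was also high in these 2, 26.5 to 58.5 CPM against 13.1 to 14.6 CPM in the other mat del embryos of that stage. All 10 markers of tailbud and presomitic mesoderm had counts in every embryo, with a sum of 571 to 1530 CPM in wt and 972 to 1410 CPM in mat del. Uncx and Pax1 of the formed somite, and Egr2, En1 and Six3 of hindbrain and more anterior neural tissue, had 0 counts in the median embryo. The lowest tailbud sum was in wt replicate 1 at 10 somites, where it was 571 CPM against 1160 to 1210 CPM in the other 3 embryos of that group, while its visceral endoderm sum was 2440 CPM against 96.4 to 452. In bulk tissue, fewer cells of a type and less RNA per cell cannot be told apart.

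Hoxc4 was the most abundant of the 7 genes and Hoxa4 the least. Levels are given on the log2 RPKM scale (reads scaled to gene length and library size) as mean ± SD over the 37 embryos. Hoxc4 was at 5.35 ± 0.37, rank 4 of the 39 Hox genes. Hoxd4 followed at 4.22 ± 0.24, Hoxb3 at 4.06 ± 0.17 and Hoxa3 at 4.02 ± 0.24. Hoxb4 was lower at 3.24 ± 0.30, Hoxd3 at 2.49 ± 0.36 and Hoxa4 at 1.34 ± 0.42. On the linear scale the mean was 41.8 RPKM for Hoxc4 and 2.63 RPKM for Hoxa4. Each group held genes of high and of low level.

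Within an embryo the step from Hoxc4 to Hoxd4 was 1.13 ± 0.27 and held in 37 of 37 embryos. The step from Hoxd4 to Hoxb3 was 0.16 ± 0.22, smaller than its spread though in the same direction in 30 of 37 embryos. That from Hoxb3 to Hoxa3 was 0.031 ± 0.25 (19 of 37), so these last 2 genes had no steady order. Hoxa3 exceeded Hoxb4 by 0.78 ± 0.38 (36 of 37), Hoxb4 exceeded Hoxd3 by 0.75 ± 0.34 (37 of 37) and Hoxd3 exceeded Hoxa4 by 1.16 ± 0.53 (36 of 37). The ranks of Hoxc4, Hoxb4, Hoxd3 and Hoxa4 were the same in each of the 12 groups, and only the 3 genes between Hoxc4 and Hoxb4 changed places. Values recomputed from the counts and the joined exon length were 0.034 higher on average for every one of the 7 genes.

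**Figure D1:**
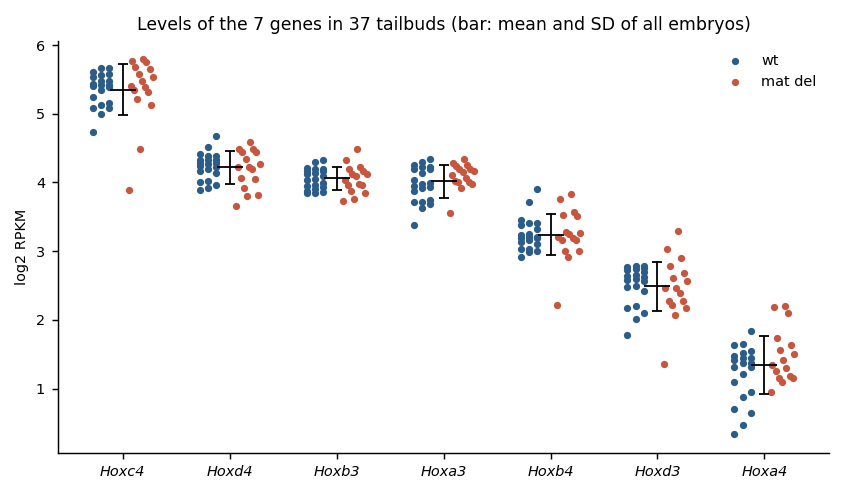
Log2 RPKM of the 7 genes (y axis) in each of 37 embryos, in order of the mean, with wt embryos in blue and mat del embryos in red. Horizontal bars give the mean and whiskers the SD over all embryos. Hoxc4 (mean 5.35) stands above the rest, Hoxd4, Hoxb3 and Hoxa3 overlap, and Hoxa4 (mean 1.34) is lowest.

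Precision differed with level. Hoxa4 had a median of 53 counts for each embryo and only 7 in each of the 2 shallowest libraries, where counting error alone gives an SD of 0.55 on the log2 scale. Hoxc4 had a median of 1370 counts and a counting SD of 0.039, yet its SD among embryos of the same genotype and stage was 0.37. For Hoxb3 this SD was 0.17, for Hoxd4 0.20, for Hoxd3 0.22, for Hoxa3 0.24, for Hoxb4 0.32 and for Hoxa4 0.42.

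The first comparison asks how the genes change in control tailbuds as somites form. Hoxd3, which acts in the formation of the first cervical vertebrae, rose with stage, and the other 6 genes did not pass the test. The 4 wt embryos with 6 somites were at 1.78, 2.21, 2.17 and 2.10 log2 RPKM for Hoxd3. Those with 7 somites were at 2.48, 2.42, 2.58 and 2.02, and those with 8 at 2.49, 2.76 and 2.59. At 9 somites the values were 2.77, 2.57 and 2.79, at 10 somites 2.70, 2.79, 2.66 and 2.73, and at 11 somites 2.62, 2.74 and 2.64. The 6-somite embryos lay below all embryos with 8 or more somites, and from 9 somites on the 10 embryos lay within a narrow band (2.57 to 2.79).

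In the edgeR quasi-likelihood fit with sex as a covariate, Hoxd3 rose by 0.13 log2 units for each somite (SE 0.024, 95% interval 0.077 to 0.17, adjusted p = 0.00184, 21 embryos), a 1.54-fold rise over the 5 somites from first to last stage. The test called 1036 of 15667 genes (6.61%), and 480 of them (3.06%) rose, while 21.4% had an unadjusted p under 0.05. Of the 7 Hox genes 1 was called, by edgeR, by DESeq2 (Hoxd3 adjusted p = 2.77e-05) and by limma on the log2 RPKM values. Limma gave Hoxd3 an adjusted p of 0.00152, adjusted over the 39 Hox genes alone. Over 29 alternative fits the slope of Hoxd3 stayed between 0.11 and 0.15, with adjusted p from 2.77e-05 to 0.00589.

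Hoxd4, its neighbour, had the next largest fitted slope in wt, 0.048 for each somite (SE 0.020), with an unadjusted p of 0.0226 and an adjusted p of 0.152 in edgeR. At 6 somites the 4 wt embryos lay between 3.92 and 4.02 log2 RPKM, below 16 of the 17 later wt embryos. At 7 somites they were at 4.32, 4.67, 4.52 and 3.89, and at 11 somites at 4.39, 4.27 and 4.19. The slope of Hoxd4 passed without wt replicate 2 at 7 somites, the shallowest wt library and the one with the highest value (0.058, edgeR adjusted p = 0.037), and with females alone (0.074, adjusted p = 0.00801). With females alone, Hoxa3 (slope 0.065, adjusted p = 0.0396) and Hoxc4 (0.072, 0.0387) also passed in wt.

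The remaining slopes in wt were -0.038 for Hoxb4 (SE 0.027), 0.037 for Hoxc4 (0.029), 0.030 for Hoxa3 (0.027), -0.021 for Hoxb3 (0.020) and -0.00017 for Hoxa4 (0.046), with adjusted p from 0.448 to 0.999 in edgeR. These intervals leave room for slopes of up to 0.10 for each somite for Hoxc4 and 0.085 for Hoxa3. Hoxb3 was the steadiest. Its 6 wt group means lay between 4.0 and 4.12 log2 RPKM. Hoxb4 had its highest wt mean at 7 somites, 3.52 ± 0.39 (SD, n = 4), where the values ran from 3.03 to 3.91.

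**Figure D2:**
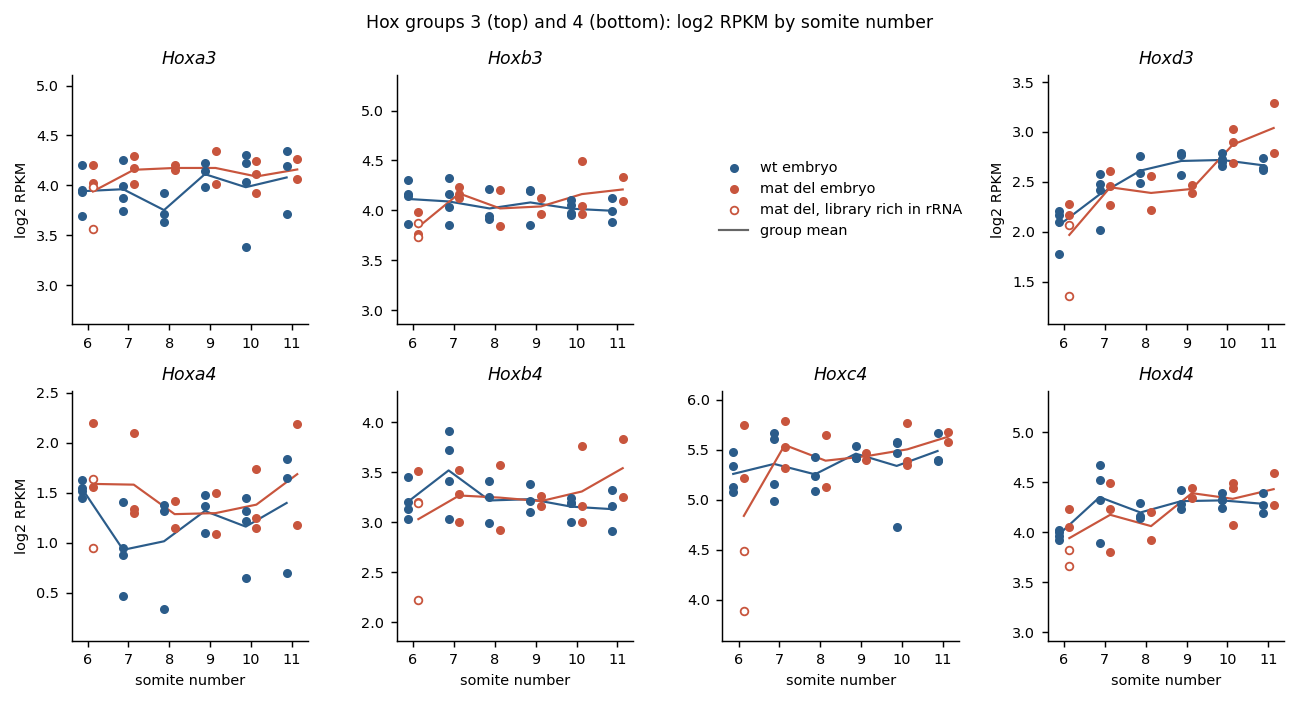
Log2 RPKM (y axis) against somite number (x axis) for each gene, group 3 in the upper row and group 4 in the lower, with wt embryos in blue, mat del embryos in red, lines through group means, and open points for the 2 libraries rich in ribosomal RNA. Every panel spans 2.5 log2 units. Hoxd3 climbs in both genotypes, from a mean of 2.06 to 2.67 in wt and from 1.97 to 3.04 in mat del embryos.

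In mat del tailbuds, too, Hoxd3 was the only one of the 7 to pass. The 4 mat del embryos with 6 somites were at 1.36, 2.07, 2.17 and 2.28 log2 RPKM, and the lowest of these, replicate 1, is one of the libraries rich in ribosomal RNA. Embryos with 7 somites were at 2.46, 2.61 and 2.27, those with 8 at 2.22 and 2.56, and those with 9 at 2.47 and 2.39. The embryos with 10 somites (2.90, 2.69 and 3.03) and 11 somites (3.29 and 2.79) lay above all earlier ones. In wt, by contrast, embryos with 9, 10 and 11 somites overlapped.

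The fitted slope of Hoxd3 in mat del was 0.17 for each somite (SE 0.034, 95% interval 0.10 to 0.25, edgeR adjusted p = 0.00685, 16 embryos), 1.83-fold over 5 somites. The test called 478 of 16222 genes (2.95%), of which 300 (1.85%) rose, and 17.1% had an unadjusted p under 0.05. DESeq2 gave an adjusted p of 7.75e-05. Without the 2 libraries rich in ribosomal RNA the slope was 0.15 (adjusted p = 0.0176), and with females alone, 11 embryos, it was 0.18 but no longer passed (adjusted p = 0.067).

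Hoxd4 had a slope of 0.087 in mat del (SE 0.029, unadjusted p = 0.00765, edgeR adjusted p = 0.122), and Hoxb3 one of 0.054 (SE 0.025, unadjusted p = 0.0458, adjusted p = 0.282). Hoxc4 had 0.10 (SE 0.052) and one of 0.024 when mat del replicates 1 and 2 at 6 somites were left out. Hoxb4 had 0.074 (SE 0.047), Hoxa3 0.028 (0.024) and Hoxa4 -0.032 (0.058), none of them past the threshold. The fitted slope was above 0 for 6 of the 7 genes in mat del and for 4 in wt, against 51.8% and 48.5% of all genes tested.

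**Figure D3:**
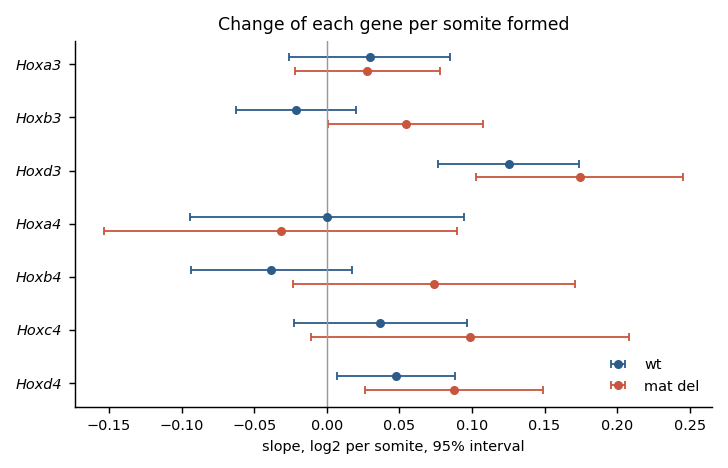
Fitted slope of each gene (x axis, log2 units for each somite, with 95% intervals) in 21 wt embryos (blue) and 16 mat del embryos (red). The intervals of Hoxd3 and Hoxd4 lie above 0 in both genotypes and that of Hoxb3 in mat del, and after adjustment over all genes Hoxd3 alone passed.

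Rows that overlap these genes were read beside them, since it is not given in the sources used here whether strand was used in counting. Gm28230, a same-strand transcript model that covers 53.1% of the exon bases of Hoxd3 and 39.1% of those of Hoxd4, had a slope of 0.075 in wt (SE 0.021, edgeR adjusted p = 0.0354) and 0.11 in mat del (SE 0.025, adjusted p = 0.0165). How reads were divided among Hoxd3, Hoxd4 and Gm28230 is not given in the sources used here. Hoxd3os1, an antisense RNA over 8.28% of Hoxd3, was at 0.15 (adjusted p = 0.0829) and 0.29 (0.0597), from a median of 39 and 42 counts. Hoxb3os lies opposite 52.9% of Hoxb3 exon bases and averaged 1390 counts, and its slopes, -0.020 and 0.032, did not pass in edgeR. Of the rows over Hoxa3, Hoxaas3 covers 4.94% of its exon bases from the other strand and rose in mat del (slope 0.080, SE 0.020, adjusted p = 0.0364), and Gm28308 (8.01%) had slopes of 0.043 and 0.039. No row shared exon bases with Hoxb4 or Hoxc4.

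Markers of other tissues were set beside the rise of Hoxd3. The summed level of the formed somite markers in wt was 7.31 to 14.4 CPM at 6 somites and 14.2 to 16.5 CPM at 11, and in mat del 13.1 to 58.5 CPM and 13.9 to 18.2 CPM. From 6 to 11 somites the median visceral endoderm sum went from 1130 to 52.8 CPM in wt and from 1060 to 207 CPM in mat del. The median primitive erythroid sum went from 93.6 to 885 CPM in wt and from 116 to 2950 CPM in mat del. The part of these tissues in the slope was not tested.

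The second comparison asks whether the genes differ between wt and mat del embryos of the same somite number. None of the 7 passed over all stages, in either window of stages or at any single stage. Over all 37 embryos, with somite number and sex in the edgeR fit, the test called 2 of 14733 genes (0.0136%), and 834 (5.66%) at an unadjusted p under 0.05. Of the 7 Hox genes, 0 passed by edgeR or by DESeq2, and 0 had an unadjusted p under 0.05 in either. Fitted differences were above 0 for 6 of the 7 and for 51.1% of all genes.

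For Hoxb3 the difference over all stages was 0.015 log2 units, mat del minus wt (95% interval -0.11 to 0.14), for Hoxd4 -0.014 (-0.13 to 0.10) and for Hoxd3 0.025 (-0.11 to 0.17). These intervals end within 1.12-fold of equal levels on either side. Hoxb4 was at 0.029 (-0.17 to 0.22) and Hoxc4 at 0.021 (-0.19 to 0.23), with bounds at 0.878-fold and 1.17-fold for Hoxc4. Hoxa3, at 0.12 (-0.013 to 0.25), and Hoxa4, at 0.22 (-0.040 to 0.48), had the largest fitted differences, with edgeR adjusted p of 0.866 for both. For the A cluster genes the interval thus reaches 1.19-fold (Hoxa3) and 1.39-fold (Hoxa4) higher in mat del. The median over the 7 genes was 0.025 and that over all genes tested 0.0026.

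**Figure D4:**
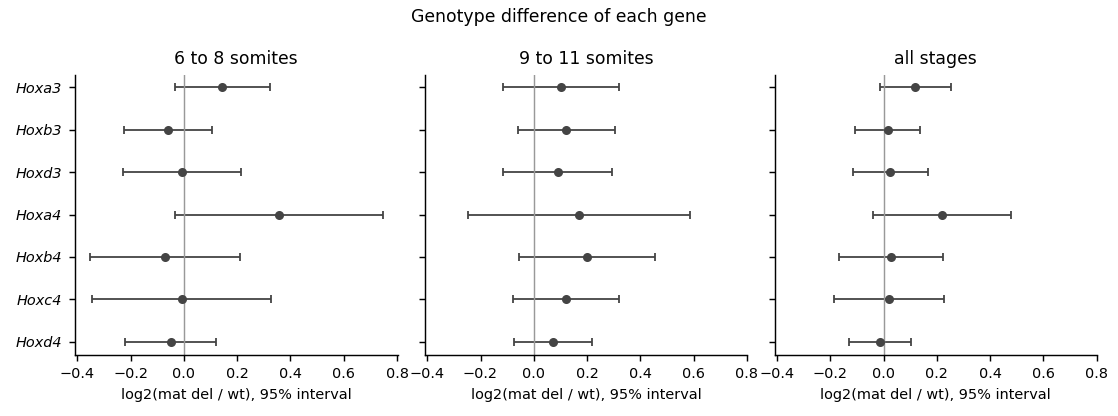
Fitted difference of each gene, log2 of mat del over wt (x axis), with 95% intervals, at 6 to 8 somites (20 embryos), 9 to 11 somites (17 embryos) and over all stages (37 embryos). Every interval includes 0. At 9 to 11 somites all 7 points lie above 0, between 0.073 and 0.20.

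At 6 to 8 somites the test called 1 of 14495 genes (0.0069%), and 1178 (8.13%) had an unadjusted p under 0.05. None of the 7 passed in edgeR or DESeq2, with 0 at an unadjusted p under 0.05, and 2 of the 7 were above 0, against 48.2% of all genes. Hoxa4 was highest at 0.36 (SE 0.19, unadjusted p = 0.0723, edgeR adjusted p = 0.647). Its 11 wt embryos ran from 0.34 to 1.63 log2 RPKM (median 1.38) and its 9 mat del embryos from 0.95 to 2.20 (median 1.42). The groups thus overlapped from 0.95 to 1.63. Hoxa3 was at 0.14 (SE 0.086, adjusted p = 0.68), with 3.63 to 4.25 in wt (median 3.92) and 3.56 to 4.29 in mat del (median 4.15). The other 5 genes were between -0.072 and -0.0076.

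When mat del replicates 1 and 2 at 6 somites, rich in ribosomal RNA, were left out, the differences of Hoxc4, Hoxd3 and Hoxb4 at 6 to 8 somites turned positive, from -0.0092 to 0.21, from -0.0076 to 0.061 and from -0.072 to 0.0086, with no call. Hoxa3 went from 0.14 to 0.21 (unadjusted p = 0.0175, edgeR adjusted p = 0.565) and Hoxa4 from 0.36 to 0.47 (unadjusted p = 0.0214, edgeR adjusted p = 0.598). In that edgeR fit 1132 of 14663 genes had an unadjusted p under 0.05. The 4 mat del embryos with 6 somites were at 3.89, 4.49, 5.75 and 5.22 log2 RPKM for Hoxc4, the first 2 being the ones rich in ribosomal RNA, against 5.08 to 5.48 in the 4 wt embryos. The mean difference of Hoxc4 at 6 somites was -0.42 with all 4 embryos and 0.23 with the remaining 2. Hoxb4 in replicate 1 was at 2.22 against 3.03 to 3.45 in wt, and Hoxd4 in the pair was at 3.66 and 3.82 against 3.92 to 4.02. The part of ribosomal RNA and of the somite markers, which were high in the same libraries, was not tested.

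At 9 to 11 somites the fitted difference was above 0 for all 7 genes, with a median of 0.12, and 52.4% of all 14909 genes were above 0. The test called 1 gene (0.00671%), with 261 (1.75%) at an unadjusted p under 0.05, and none of the 7 by edgeR or DESeq2, with 0 at an unadjusted p under 0.05. Hoxb4 was highest at 0.20 (SE 0.12, 95% interval -0.057 to 0.45, edgeR adjusted p = 1), with 2.91 to 3.38 log2 RPKM in 10 wt embryos (median 3.19) and 3.0 to 3.83 in 7 mat del embryos (median 3.25). Hoxd4 was lowest at 0.073 (SE 0.069). Hoxa4 (-0.16) and Hoxa3 (-0.032) were below 0 with females alone. Leaving out wt replicate 1 at 10 somites, the library low in tailbud markers, took Hoxa3 from 0.10 to 0.033 and Hoxc4 from 0.12 to 0.050.

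Embryo by embryo at matched stages, wt and mat del values overlapped in 39 of the 42 pairings of a gene and a stage. The exceptions were Hoxa3 at 8 somites and Hoxd3 at 9 and at 11. For Hoxa3 the wt embryos with 8 somites were at 3.63, 3.71 and 3.92 log2 RPKM. The mat del embryos were at 4.2 and 4.15 (difference 0.42, within-group SD 0.12). The first 2 of these wt embryos were male and the others at this stage female. With sex in the single-stage edgeR fit the difference was 0.30 (unadjusted p = 0.147, adjusted p = 1). The sum of the tailbud markers also separated at 8 somites, 904 to 1000 CPM in wt against 1190 to 1320 CPM in mat del. Its part in the Hoxa3 values was not tested. For Hoxd3 the mat del embryos were below wt at 9 somites (2.47 and 2.39 against 2.57 to 2.79, edgeR adjusted p = 1) and above at 11 (3.29 and 2.79 against 2.62 to 2.74, adjusted p = 1). With 3 wt and 2 mat del embryos at these stages, 15.8% of 14733 genes did not overlap at 8 somites, 12.4% at 9 and 27.1% at 11. At 6 somites no member separated and 3.43% of genes did, at 7 somites none and 5.81%, and at 10 somites none and 1.73%. No gene in the table passed a single-stage test in edgeR, where 1964 (11.7%) had an unadjusted p under 0.05 at 6 somites and 369 (2.21%) at 11, and DESeq2 called 39 and 14. When the 2 libraries rich in ribosomal RNA were left out, Hoxd4 at 6 somites also separated, with 4.05 and 4.23 in mat del above 3.92 to 4.02 in wt, in a comparison of 4 with 2 embryos where 11.9% of genes did not overlap.

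At 10 somites the difference in mean log2 RPKM was above 0 for 7 of 7 genes (0.016 to 0.22), and at 11 somites for 7 of 7 (0.080 to 0.41). At 6 somites it was above 0 for 1 gene, at 7 for 5, at 8 for 4 and at 9 for 2. The count at 6 somites depended on 2 embryos, since with mat del replicates 1 and 2 left out it was 6 of 7, Hoxb3 (-0.25) being the exception. In log2 CPM the counts were 3, 5, 3, 2, 7 and 7 of 7 from 6 to 11 somites, against 42.5%, 51.2%, 50.4%, 51.8%, 49.9% and 52.9% of 14733 genes, and 6 of 7 against 42.9% at 6 somites with those 2 embryos left out. For Hoxb4 at 11 somites the wt embryos were at 3.16, 3.32 and 2.91 and the mat del embryos at 3.83 and 3.25. For Hoxb3 they were at 3.88, 4.12 and 3.99 against 4.33 and 4.09. For both genes mat del replicate 1 lay above all wt embryos and replicate 2 within their range. At 11 somites mat del replicate 1 was the higher of its pair for all 7 genes. It had 1.28% of counts at the ribosomal RNA locus, the highest share after the 2 libraries at 6 somites, and the part of this was not tested. In replicate 2, Hoxa3 (4.06), Hoxa4 (1.18) and Hoxd4 (4.27) were below the wt means (4.08, 1.4 and 4.28), and the rest were above. The 10-somite wt mean includes replicate 1, with Hoxa3 at 3.38 and Hoxc4 at 4.73. The rest of that group was at 4.03 to 4.30 and 5.47 to 5.58. By median, wt was the higher at 10 somites for both genes, 4.13 against 4.11 for Hoxa3 and 5.52 against 5.39 for Hoxc4. The sign of the mean difference thus depended on replicate 1 for both, and the count without it was not made. In the single-stage edgeR fit with sex, 6 of 7 genes were above 0 at 10 somites, Hoxd4 (-0.06) being the exception.

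Whether the genotype difference changes with stage was tested as the difference between the slopes. No gene passed in edgeR (0 of 14733, 0%), where 540 (3.67%) had an unadjusted p under 0.05, and DESeq2 called 0. The fitted difference was above 0 for 6 of the 7 genes and for 49.7% of all. Hoxb3 had the smallest unadjusted p of the 7 genes, with a slope 0.071 higher in mat del for each somite (SE 0.031, 95% interval 0.0079 to 0.13, unadjusted p = 0.0285, adjusted p = 1). Its 4 mat del embryos with 6 somites were at 3.87, 3.73, 3.76 and 3.98 log2 RPKM against 3.86, 4.30, 4.16 and 4.14 in wt. Hoxb4 differed by 0.10 (SE 0.051, unadjusted p = 0.0558), Hoxc4 by 0.062 (SE 0.058), Hoxd3 by 0.048 (SE 0.038) and Hoxd4 by 0.031 (SE 0.033). Hoxa3 (0.0031) and Hoxa4 (-0.0014) were near 0, Hoxa4 with an interval from -0.16 to 0.15. The slopes of Hoxd3, 0.17 in mat del and 0.13 in wt, had an unadjusted p of 0.222 for their difference.

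Genes around the 7 were followed by fixed lists. Of 9 cofactors that bind DNA with HOX proteins, Pbx2 (slope 0.065, edgeR adjusted p = 0.00504) and Pknox1 (0.10, adjusted p = 0.00527) rose with stage in wt and none passed in mat del, where Meis1 was closest (-0.17, adjusted p = 0.0946). None passed the test of the slope difference. Of 15 known regulators, 14 were tested and 4 passed in each genotype. Cdx1, a homeobox activator of trunk Hox genes, fell (-0.34 for each somite in wt, adjusted p = 2.66e-05, and -0.46 in mat del, 0.000231), while Gdf11, a signal for the change from trunk to tail, rose (0.24 and 0.25), as did Cyp26a1, which clears retinoic acid (0.20 and 0.30), and Wnt5a (0.15 and 0.18). None of either list passed in a genotype comparison. Among the regulators the smallest p over all stages and in each window were those of Fgf8 over all stages (0.33, edgeR adjusted p = 0.864), Cdx1 at 6 to 8 somites (0.51, adjusted p = 0.308) and Cdx4 at 9 to 11 (0.28, adjusted p = 1).

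Of the genes next to groups 3 and 4 in their clusters (Hoxa2, Hoxa5, Hoxb2, Hoxb5, Hoxc5, Hoxd1 and Hoxd8), 1 of 7 passed, Hoxd8, with a slope of 0.30 in wt (edgeR adjusted p = 2.66e-05) and 0.44 in mat del (adjusted p = 3.24e-05). Of all other Hox genes in the fit, 9 of 28 passed in wt (8 rising) and 10 of 28 in mat del (9 rising). The median slope over those 28 was 0.064 in wt and 0.19 in mat del, and over the 7 genes of groups 3 and 4 it was 0.030 and 0.074. Among the other Hox genes, Hoxa9 had 0.29 in wt and 0.37 in mat del and Hoxc9 0.39 and 0.41, each more than the slope of Hoxd3.

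How the 7 genes vary together among embryos of the same genotype and stage was described by Pearson correlation of log2 CPM after the group mean was subtracted, over 37 embryos that share libraries and depth. Hoxb4 correlated at 0.76 with both Hoxd3 and Hoxd4, Hoxd3 with Hoxd4 at 0.69, and Hoxc4 at 0.65 to 0.68 with these 3. These 4 genes come from 3 clusters. Over all 21 pairs the median was 0.38, over the 3 pairs of neighbours in a cluster 0.47 and over the 9 pairs within a paralogue group 0.48. Without the 2 libraries rich in ribosomal RNA, Hoxd3 and Hoxb4 were at 0.65 and Hoxd3 and Hoxc4 at 0.55, while Hoxb4 and Hoxd4 were at 0.78. Hoxd3 and Hoxd4 share exon bases, and the part of shared reads in their value was not tested.

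**Figure D5:**
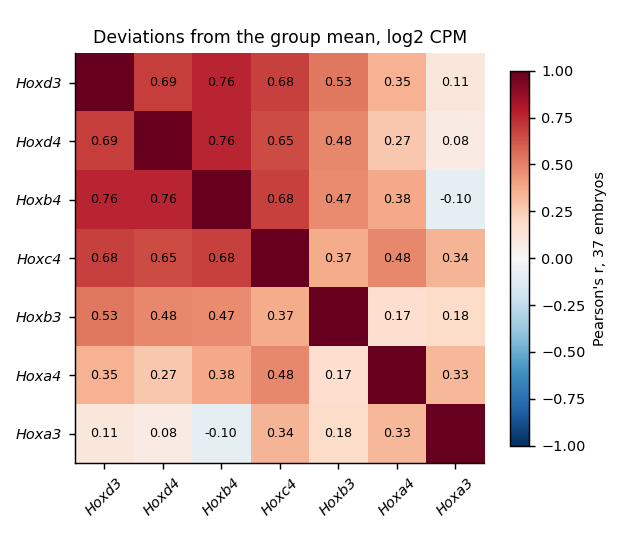
Pearson correlation of each pair of genes over 37 embryos, after the mean of the genotype and stage was subtracted from log2 CPM. Hoxd3, Hoxd4, Hoxb4 and Hoxc4 form a block at 0.65 to 0.76, and Hoxa3 is between -0.10 and 0.34 with the other 6.

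Hoxa3 followed another pattern. Its values were close to none of the other 6 genes, and the 3 genes most like it among 14723 were Jph3 (r = 0.85), Fgf8 (0.84) and Cdx2 (0.81), Fgf8 being a growth factor and Cdx2 a homeobox factor of the tailbud. Its correlation with the sum of the 10 tailbud markers, which include Fgf8 and Cdx2, was 0.86, and 0.79 without wt replicate 1 at 10 somites, where Hoxa3 had its lowest value (3.38 log2 RPKM against 4.03 to 4.30 in the other 3). With the same sum, Hoxa4 was at 0.47, Hoxc4 at 0.44, Hoxb3 at 0.37, Hoxd3 at 0.21, Hoxd4 at 0.13 and Hoxb4 at 0.075. With the 5 lateral plate markers Hoxc4 was at -0.67, Hoxa4 at -0.66, Hoxb4 at -0.56 and Hoxd3 at -0.48. Hoxd4 was at -0.27, Hoxb3 at -0.22 and Hoxa3 at -0.21. The lateral plate sum was 200 to 387 CPM in mat del replicates 1 and 2 at 6 somites, against 156 to 238 CPM in the others of that group. In wt replicate 1 at 10 somites it was 373 CPM against 243 to 279 CPM. These correlations were not recomputed without those libraries.

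For the remaining genes the most similar were, for Hoxb3, Gm29054 (0.76), Efcab2 (0.70) and Xkr6 (0.65), for Hoxd3, Hoxb4 (0.76), 3300002I08Rik (0.74) and Tagap1 (0.73), and for Hoxa4, Rhpn2 (0.74), Zw10 (0.69) and Adamts4 (0.69). For Hoxb4 they were Hoxd4 and Hoxd3 (both 0.76), for Hoxc4 Stk4 (0.86), Lin28b (0.85) and Srl (0.85), and for Hoxd4 Mbd1 (0.79), Hoxb4 (0.76) and Aptx (0.76). Among the 50 genes most like Hoxd4 7 were Hox genes, against 3 for Hoxb4, 2 for Hoxd3, 1 each for Hoxb3 and Hoxc4 and 0 for Hoxa3 and Hoxa4. Hox genes made up 30 to 33 of the 14723 to 14732 genes searched. They include the genes of groups 3 and 4 that do not overlap the gene in question.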

How the data were processed

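Messenger RNA of single tailbuds was sequenced. Per the labels and the methods of the study, the authors made libraries with an unstranded or a stranded TruSeq kit (which kit for which library was not stated), trimmed reads with Trim Galore 0.4.4, mapped them to GRCm38.p6 with HISAT2 2.0.5 and counted them for each gene in SeqMonk. The deposited counts are raw whole numbers. The deposited log2 RPKM values of the Hox genes were corrected by the authors for library size and gene length. A further deposited table of the authors' own comparisons (p-values and fold changes) was not used.

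Of 35591 rows, 49 with a repeated identifier were dropped. Counts were tested with edgeR 4.0.16 (R 4.3.3, filterByExpr with a minimum count of 10, TMM, quasi-likelihood, two-sided, Benjamini-Hochberg over all genes tested, threshold 0.05), with sex and each somite number as covariates of genotype, and sex as covariate of slopes. CPM of named genes were divided by total counts, and log2 CPM used TMM and a prior count of 2. Limma 3.58.1 was used for log2 RPKM, with p adjusted over the 39 Hox genes, and DESeq2 1.42.0 as an alternative. The code was tested on simulated data. Depth, from 916444 to 80579115 counts, sets the counting error, and reads have no molecular identifiers, so this covers counting error only. The labels name no litter or batch, so p-values measure the spread between these embryos.

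The 7 genes were named beforehand as a family. Genes, lists and tests were chosen with earlier results of these data known. Named besides the 7 are genes past the threshold in fixed lists (at most 5 a list and test, by smallest p, or the one with the smallest p), the 3 most correlated genes of each, Smchd1, and overlapping rows (at most 3 a gene, by mean count). Some items that this rule names are not reported here. Replicate numbers are shared between genotypes, but in 4 of 16 same-numbered pairs alone did deviations correlate above 0.1 (range -0.29 to 0.65), so they were not taken to pair embryos. Within groups, 42 pairs of libraries differed beyond sampling noise (chi-square per degree of freedom 5.12 to 72.3). Alternatives changed normalization, the filter, the tool, the sex covariate, the libraries used, the unit and the block.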

Additional observations from a re-analysis of the deposited data

Results flagged for a closer look

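Hoxc4 in wt replicate 1 at 10 somites was at 4.73 log2 RPKM, far below the other 3 embryos of its group (5.47 to 5.58). Its gap to the nearest was 0.87 of the group's range, above Dixon's critical value at 95%. This was 1 of 28 tests over 4 groups of 4 embryos, and chance alone flags about 1 in 20. In this library the sum of the tailbud markers was 571 CPM against 1160 to 1210 CPM in the others, and its part in the value was not tested.

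Hoxd3 differed between genotypes in opposite directions at 2 stages. The mat del minus wt difference in log2 RPKM was 0.37 at 11 somites, where both mat del embryos lay above all wt embryos, and -0.28 at 9 somites, where both lay below. The difference between these stages was not tested on its own. The slope difference over all stages was 0.048 (edgeR adjusted p = 1).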

How the results depend on the processing

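Of 364 values of the 7 genes under other settings 332 kept their direction and side of the threshold, as did 954 of 1036 with 1 embryo left out, and 27 and 80 reversed. No reversed value passed its test. The call of Hoxd3 was lost once, for the mat del slope with females alone (0.18), and held with each embryo left out in turn. Depth limits Hoxa4 most (7 counts in each of the 2 shallowest libraries), and stages with 2 mat del embryos limit single-stage tests. The causes of the changes below were not tested.

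Genes called, without the filter on low counts, were 39 at 6 to 8 somites, 39 for the slope difference, and 32, 2, 1 and 1 at 6, 8, 9 and 11 somites. DESeq2 called 37 at 6 to 8 somites, 1556 for the wt slope, 1121 for the mat del slope, and 39, 5, 1 and 14 at 6, 7, 9 and 11 somites, with Hoxc4 at 0.017 in the first. With females alone the counts were 1 over all stages, 0 in each window, 1910 for the wt slope and 188 for the mat del slope. Without the 2 libraries rich in ribosomal RNA the mat del slope gave 301, without the 2 shallowest the 6-somite test gave 2, and without sex the test at 6 to 8 somites gave 2.

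With females alone, Hoxd3 was at -0.009, Hoxc4 at -0.028 and Hoxd4 at 0.015 over all stages, Hoxa3 at -0.032 and Hoxa4 at -0.16 at 9 to 11 somites, Hoxa4 at 0.025 for the wt slope and Hoxa3 at -0.036 for the slope difference. Without the libraries rich in ribosomal RNA, Hoxd4 was at 0.0035 over all stages, Hoxd3 at 0.061, Hoxb4 at 0.0086 and Hoxc4 at 0.21 at 6 to 8 somites, and Hoxa3 at -0.019 and Hoxc4 at -0.014 for the slope difference. Without the 2 shallowest, Hoxc4 was at -0.0078 over all stages and Hoxa4 at 0.023 for the slope difference. Without sex, Hoxa4 was at 0.0017 (wt slope), 0.007 (mat del slope) and 0.00064 (slope difference) and Hoxa3 at -0.0078 (slope difference). Hoxa4 was at 0.0025 for the wt slope with no filter, and for the slope difference at 0.00023 with RLE size factors and 0.0032 with DESeq2.

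With the replicate number as a block the counts were 1 over all stages and 0 in each window. Hoxb3 (-0.02), Hoxb4 (-0.084) and Hoxc4 (-0.024) over all stages and Hoxa4 (0.0014) for the slope difference then changed sign, and no call on the 7 genes changed. The numbers were not taken to pair embryos.

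Leaving out 1 embryo gave 2 to 3 genes over all stages, 0 to 2 at 6 to 8 somites and 0 to 1 at 9 to 11. The wt slope gave 687 (without wt replicate 1 at 11 somites) to 1971 (without wt replicate 1 at 10 somites), the mat del slope 239 (without mat del replicate 2 at 11 somites) to 615 (without mat del replicate 3 at 6 somites), and single stages 0 to 306 at 6 somites, the latter without mat del replicate 4, and 0 to 2 at 8. Over all stages Hoxb3 ranged from -0.029 to 0.034, Hoxd3 from -0.015 to 0.052, Hoxb4 from -0.034 to 0.067, Hoxc4 from -0.024 to 0.071 and Hoxd4 from -0.039 to 0.016. At 6 to 8 somites Hoxd3 ranged from -0.067 to 0.057, Hoxb4 from -0.15 to 0.011 and Hoxc4 from -0.1 to 0.1. The wt slope of Hoxa4 ranged from -0.03 to 0.019, and the slope difference from -0.015 to 0.019 for Hoxa3 and from -0.067 to 0.032 for Hoxa4. Hoxd4 passed in 1 wt refit (adjusted p = 0.037 in edgeR) and in 1 mat del refit (0.0488), without wt replicate 2 at 7 somites and without mat del replicate 2 at 10 somites. Chosen after the data were seen, leaving out the 2 libraries rich in ribosomal RNA turned the 6-somite difference in log2 RPKM positive for Hoxa3 (-0.0034 to 0.17), Hoxd3 (-0.092 to 0.16), Hoxb4 (-0.17 to 0.15), Hoxc4 (-0.42 to 0.23) and Hoxd4 (-0.036 to 0.17).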
